A study of Homo sapiens with 6 samples.

Results

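The regions described here are the most strongly enriched chromatin-accessibility peaks of SK-N-AS neuroblastoma cells grown from mouse xenografts. They were chosen by their statistical strength alone: the 500 peaks with the highest −log10 p in each of 6 lists on chromosomes 1 to 22 were taken, and those that shared a base were merged. This gave 1057 regions out of 1035919 peaks in the 6 lists. Accessibility was measured by ATAC-seq, in which the transposase Tn5 cuts and tags DNA that is not held in tightly packed chromatin. Naïve cells (SKNAS-Vel) came from a tumor of a vehicle-treated mouse, and the R1 (SKNAS-IR1) and R2 (SKNAS-IR2) cells came from indisulam-resistant tumors taken at their second relapse, in the third treatment cycle. All 3 cell types were cultured without drug and give 2 libraries each, made from 100000 cells. All 3 are adherent cells of a digested tumor, expanded in dishes, and since no source says that the pair of libraries came from different dishes, the spread between them may be technical. Of the markers of neuroblastoma cells, the adrenergic genes HAND2, GATA3 and TH and 5 of 7 mesenchymal genes had a peak within 1000 bp of a start in all 6 lists, and the mesenchymal genes SNAI2 and YAP1 had one in 5. PTPRC, CD3E and ALB, markers of leukocytes, T cells and liver, had none in any list. PECAM1, an endothelial marker, had a peak in 5 lists and EPCAM, an epithelial marker, in all 6, and none of these genes was near a member.

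ATAC-seq peaks are well known at promoters, where transcription starts on DNA kept free of nucleosomes, but other sequences can collect reads too. Satellites are long runs of a short unit repeated head to tail, found around centromeres, and telomeres are runs of the hexamer TTAGGG at chromosome ends. Reads from such arrays can fit several places in a genome, so an aligner has to choose among them. The authors kept only reads with a mapping quality, a score of how sure the placement is, of at least 1. Nuclear copies of mitochondrial DNA are fragments of the mitochondrial genome that were inserted into chromosomes during evolution. Mitochondrial DNA carries no histones and is abundant in a cell, and reads from it can align to a nuclear copy that resembles it.

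Each region was placed in the first class that applied to the 200 bp around the summit of its best-ranked top peak. In all, 713 regions (67.5%) had this summit within 1000 bp of an annotated transcript start. By class, 678 regions (64.1%) were promoters outside the repeat and copy classes used here, and 260 (24.6%) were tandem repeats. Another 21 (1.99%) were other sequences with at least 1 further copy in the genome, and 4 (0.378%) were nuclear copies of mitochondrial DNA. The 94 (8.89%) that fell in none of these are called remaining regions. Other kinds of repeat were not annotated, so promoters and remaining regions may hold some. The tandem repeats divided into 118 regions with at least 5 GGAAT or ATTCC pentamers, 23 with at least 5 TTAGGG or CCCTAA hexamers, 83 others with a unit of up to 100 bp and 36 with a longer unit.

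The following sequences stand for these classes and are read 5′ to 3′ from hg38, on the plus strand unless stated. First come the summit windows of 3 of the nuclear copies of mitochondrial DNA. Capitals mark the bases that differ from the mitochondrial genome or are inserted relative to it, so that few capitals mean a read from the mitochondrion and a read from the chromosome are nearly the same.
chr1:633917-634116, the strongest region of every list: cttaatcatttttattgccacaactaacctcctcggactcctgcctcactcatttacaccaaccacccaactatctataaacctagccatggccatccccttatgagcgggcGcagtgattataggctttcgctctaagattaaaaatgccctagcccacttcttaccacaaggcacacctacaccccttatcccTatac
chr1:629840-630039: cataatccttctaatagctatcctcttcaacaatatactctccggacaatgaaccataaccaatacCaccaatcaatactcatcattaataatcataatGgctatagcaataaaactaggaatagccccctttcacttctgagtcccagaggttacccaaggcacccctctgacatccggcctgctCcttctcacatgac
chr17:22521314-22521513: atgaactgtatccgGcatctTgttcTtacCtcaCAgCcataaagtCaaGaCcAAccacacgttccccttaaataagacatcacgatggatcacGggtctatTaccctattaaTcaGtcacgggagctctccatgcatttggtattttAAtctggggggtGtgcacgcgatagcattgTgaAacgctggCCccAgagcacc

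The next windows show the tandem repeats. In the first 3, from the strongest satellite regions, capitals mark each GGAAT or ATTCC. In the last 3 they mark the first repeat unit.
chr5:49601510-49601629: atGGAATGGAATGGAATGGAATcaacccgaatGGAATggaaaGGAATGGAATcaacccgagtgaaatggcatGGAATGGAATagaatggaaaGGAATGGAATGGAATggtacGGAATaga
chr5:49659865-49659984: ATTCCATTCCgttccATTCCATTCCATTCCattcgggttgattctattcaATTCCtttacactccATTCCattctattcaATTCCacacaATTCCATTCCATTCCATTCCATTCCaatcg
chr10:41859775-41859894: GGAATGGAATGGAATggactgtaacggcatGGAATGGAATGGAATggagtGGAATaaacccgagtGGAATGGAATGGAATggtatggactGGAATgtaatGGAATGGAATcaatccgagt
chr3:93470542-93470691, unit 42 bp: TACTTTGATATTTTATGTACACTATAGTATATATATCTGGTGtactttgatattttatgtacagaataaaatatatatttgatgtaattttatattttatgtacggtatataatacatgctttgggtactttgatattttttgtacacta
chr5:178585525-178585674, unit 31 bp, within COL23A1: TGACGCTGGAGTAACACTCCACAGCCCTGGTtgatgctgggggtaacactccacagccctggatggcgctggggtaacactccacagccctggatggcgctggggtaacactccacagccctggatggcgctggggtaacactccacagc
chr16:1025274-1025423, unit 24 bp: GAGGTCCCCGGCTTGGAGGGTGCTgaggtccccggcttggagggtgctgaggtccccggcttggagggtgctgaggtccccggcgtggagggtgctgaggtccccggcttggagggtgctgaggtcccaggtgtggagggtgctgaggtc

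The last 3 come from regions not classed as tandem repeats. First are the 150 bp before the start of LRRC45 and of RAB40B (minus strand), both from the RefSeq promoter table for hg38. In these, CCAAT and GGGCGG on either strand are in capitals. Then comes the window of the region next to the U2 small nuclear RNA gene, which has 12 other near-identical copies.
LRRC45, chr17:82023155-82023304: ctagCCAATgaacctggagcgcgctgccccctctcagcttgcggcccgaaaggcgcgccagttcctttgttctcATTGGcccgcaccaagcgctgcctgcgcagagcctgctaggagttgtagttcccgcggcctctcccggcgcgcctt
RAB40B, chr17:82698699-82698848: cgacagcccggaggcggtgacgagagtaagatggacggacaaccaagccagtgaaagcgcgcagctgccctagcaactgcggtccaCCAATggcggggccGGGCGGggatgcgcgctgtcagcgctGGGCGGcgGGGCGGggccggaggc
near U2, chr17:43251617-43251736: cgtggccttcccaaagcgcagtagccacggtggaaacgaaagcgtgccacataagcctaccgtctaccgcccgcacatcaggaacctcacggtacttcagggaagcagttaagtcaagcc

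The background rate of the libraries, which stands for depth here, differed widely. Each deposited fold equals a whole number of tags plus 1, divided by the background rate plus 1, which gives the tags piled up at the summit and the background rate in tags per window. That rate was 2.29 and 1.35 for the naïve libraries, 7.94 and 5.43 for R1, and 0.850 and 0.899 for R2, a 9.34-fold range. Below, enrichment means tags divided by this rate. The 500th peak had 81 and 55 tags for naïve cells, 334 and 222 for R1, and 44 and 45 for R2, and the next peak had the same number in every list, so that position settled the order among ties. The strongest peak had between 1966 and 3841 tags. The number of top peaks in each class is therefore a description of where each list ends, not a test.

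The strongest peaks were repeats rather than promoters. Of the 50 best peaks of each list, between 60% and 90% lay in tandem repeats and between 0% and 20% in promoters. Among the last 250 of the 500, tandem repeats made up 8.4% to 26.8% and promoters 62% to 86.8%. Just below the threshold, in the next 500 ranks of all lists, the tandem share was 8.13% and the promoter share 81.1%, and over every 38th peak from there to rank 20000, called the deeper ranks here, they were 4.23% and 55%. Nuclear copies of mitochondrial DNA followed the same course: they held 4 of the 50 best peaks of every list, 0.0333% of the next 500 ranks and 0% of the deeper ranks, where 0 of 3000 peaks were found. Other multi-copy sequences did not fall off in this way, with 2.2% to 3% of the top 500, 2.13% of the next 500 ranks and 3.13% of the deeper ranks. The remaining regions were 3.2% to 10.2% of the top 500, 8.6% of the next 500 ranks and 37.6% of the deeper ranks.

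**Figure D1:**
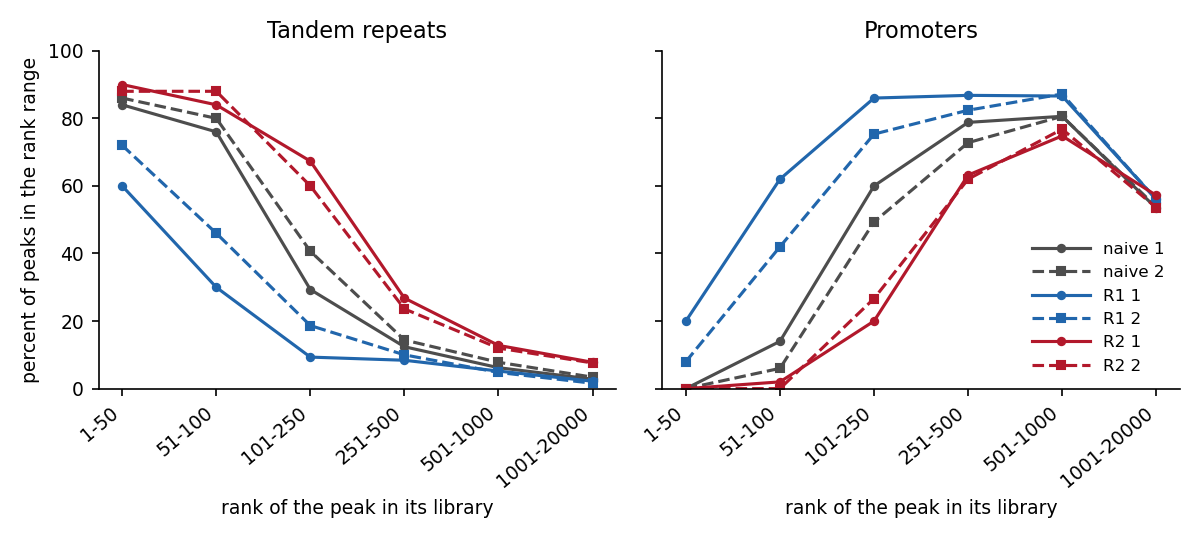
Percent of peaks in tandem repeats (left) and in promoters (right), by range of rank within each library, for naïve (gray), R1 (blue) and R2 (red) libraries, with replicate 1 as solid lines and circles and replicate 2 as dashed lines and squares; the last range is every 38th peak. Tandem repeats lead every list, at 60% to 90% of the 50 best peaks, and promoters overtake them further down.

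Repeats recurred across lists more often than promoters did. A top peak was found in all 6 lists for 155 regions, in 5 lists for 65, in 4 for 89, in 3 for 113, in 2 for 280 and in 1 list for 355. Those in all 6 lists were 4 of 4 copies of mitochondrial DNA, 40 of 118 pentamer satellites (33.9%), 7 of 21 other multi-copy sequences (33.3%), 11 of 36 tandem repeats with a long unit (30.6%) and 19 of 83 with a short unit (22.9%), beside 67 of 678 promoters (9.88%) and 0 of 23 hexamer arrays. A region that missed the top of a list was hardly ever missing from the list. In total 1045 regions (98.9%) overlapped a peak of any rank in all 6 lists, and the other 12 overlapped a peak in at least 4. The same share was not taken for peaks of lower rank, so it cannot be called particular to these regions.

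The strongest region of every list was a nuclear copy of mitochondrial DNA on chromosome 1. The region chr1:633828-634865 had 3623 and 3101 tags for naïve cells, 3841 and 3466 for R1, and 2027 and 1966 for R2. It lies over MTATP6P1, a pseudogene of the mitochondrial ATP synthase subunit 6 gene, and its 200-bp summit window differed from mitochondrial DNA at 2 bases (99.0% identity, within MT-ATP6). A second region of the same insertion, chr1:629774-630657 over MTND2P28, a pseudogene of a subunit of respiratory complex I, differed at 3 bases (98.5% identity, within MT-ND2) and ranked 2nd, 2nd, 4th, 4th, 6th and 6th. Its tags were 1925 and 1447 for naïve cells, 2055 and 1838 for R1, and 949 and 932 for R2. Both belong to a match of 5846 bp at 98.5% identity to mitochondrial positions 3911 to 9755, at chr1:629081-634924.

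The other copies were less alike to mitochondrial DNA. The region chr17:22521267-22521520 lies at a junction where a match to the end of the mitochondrial genome (14365 to 16569, 80.5% identity) meets one to its beginning (1 to 458, 79.7%), so that it holds a copy of the control region, from which mitochondrial replication and transcription start. Its window had 22 differing, 2 inserted and 2 deleted bases (87.1% identity), and it had 942 and 742 tags for naïve cells, 1229 and 1065 for R1, and 511 and 515 for R2. The region chr17:22524308-22524537, in a match of 10564 bp near MTND1P15, resembled the large mitochondrial ribosomal RNA gene MT-RNR2 at 89.5% identity. It had 496 and 371 tags for naïve cells, 669 and 511 for R1, and 280 and 289 for R2. All 4 regions ranked among the 32 best peaks of every list.

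Having mitochondrial origin was not by itself enough to give a peak. Chromosomes 1 to 22 held 538 matches of mitochondrial DNA of at least 100 bp, of which 36 overlapped a peak in any list, 5 a peak in all lists and 4 a member. Of the 12 matches with at least 95% identity, 2 overlapped a peak in any list, and 1 of them, the long insertion on chromosome 1, was a member. The match nearest to it in length and identity, chr5:134923309-134928527 (5219 bp, 94.1%), had a peak in all lists but far down: its best peak had 16 and 13 tags for naïve cells, 29 and 23 for R1, and 7 and 10 for R2. A match of 9118 bp at 88.4% identity, chr5:100045938-100055045, had no peak in any list. Among the 394 matches under 80% identity, 22 overlapped a peak and 1 a member. Reads aligned to mitochondrial DNA itself were left out by the authors before peaks were called, and the part that mitochondrial reads had in these 4 regions was not tested.

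**Figure D2:**
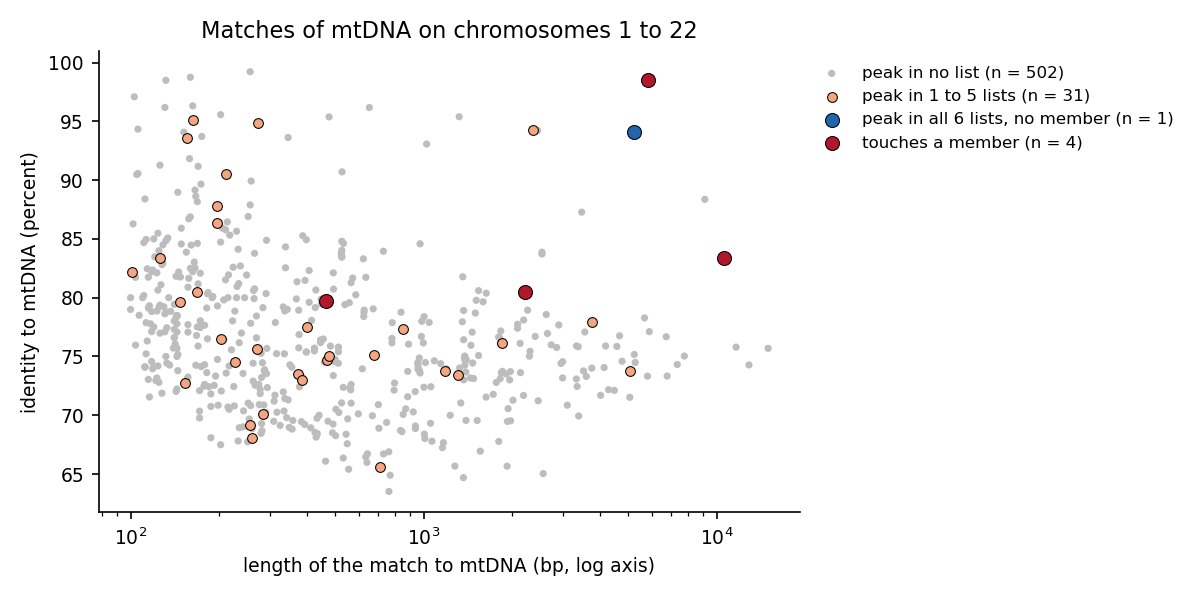
Each point is a match of mitochondrial DNA on chromosomes 1 to 22, by its length in bp (log axis) and its percent identity. The 4 matches that touch a member (red) and the chromosome 5 match with a weak peak in all lists (blue) are spread from 464 to 10564 bp, while 502 of the 538 matches have no peak (gray) and the rest have a peak in some lists (orange).

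The tags on copies of mitochondrial DNA differed less between libraries than those on promoters did. Their median tags ranged from 723.5 to 1642 over libraries, a 2.27-fold range, while the median over promoters ranged from 38 to 343, 9.03-fold, close to the 9.34-fold range of the background rate. Their median enrichment was 627 and 810 for naïve cells, 207 and 267 for R1, and 859 and 805 for R2. Set over the median promoter of the same library, this was 20.25 ± 2.31 times (SD, n = 2) for naïve cells, 5.65 ± 1.22 in R1 and 18.9 ± 0.227 in R2. R1 was thus low in both libraries, while the naïve and R2 libraries overlapped. The R1 libraries also had the highest background rates, and depth and cell type cannot be told apart here.

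The pentamer GGAAT is the unit of human satellites 2 and 3, and regions rich in it were the largest class of repeats. Its 118 regions had a median of 23 pentamers in the 200-bp window, and 43 of them repeated best at the bare unit of 5 bp. They covered 235 kb in all, with a median width of 1143.5 bp. Chromosome 4 held 31, chromosome 10 held 19, chromosome 16 held 16, chromosome 20 held 13, and chromosomes 17 and 21 held 11 each, and 87 of the 118 lay within 2 Mb of the centromeric array of their chromosome, as marked by the density of CENP-B boxes. None of their windows lay within 1000 bp of a transcript start. The CENP-B box itself, the binding site of a centromere protein in alpha satellite, occurred in 0 of the 260 tandem repeat windows.

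The leading satellite regions were large and near the top of all lists. On chromosome 5, chr5:49599307-49603110 had 1462 and 1114 tags for naïve cells, 2360 and 2061 for R1, and 1419 and 1388 for R2, and ranked 2nd or 3rd throughout. Its neighbor chr5:49656247-49661896 had 1364 and 1091 for naïve cells, 2223 and 1986 for R1, and 1330 and 1273 for R2. On chromosome 10, the widest of the leading regions, chr10:41856929-41866318, had 1246 and 1026 tags for naïve cells, 1802 and 1654 for R1, and 1117 and 1170 for R2. The regions chr10:41878312-41885098, chr5:49666073-49667363 and chr10:41874630-41876899 followed, with enrichments from 149.7 in R1 to 1277 in R2. In all 6 of these regions both R2 libraries were higher than the naïve libraries and both R1 libraries lower.

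Over the 117 satellite regions with a peak in all lists, the median enrichment was 49.0 and 63.7 for naïve cells, 33.7 and 38.5 for R1, and 126 and 113 for R2, beside 33.7 and 37.0, 43.2 and 41.0, and 45.9 and 42.3 for promoters. The satellite median was 1.59 ± 0.188 times (SD, n = 2) the promoter median for naïve cells, 0.859 ± 0.110 in R1 and 2.71 ± 0.0420 in R2. These medians, and those of the other classes, are over members chosen by the same values: 20 of the satellites entered only through both R2 lists and 0 only through R1, while 96 promoters entered only through R1, so that the ratios are a description and not a measure of a difference between the cell types. In tags rather than enrichment the order was different, at 112 and 86 for naïve cells, 268 and 209 for R1, and 107 and 102 for R2: R1 had the most tags but also the highest background.

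**Figure D3:**
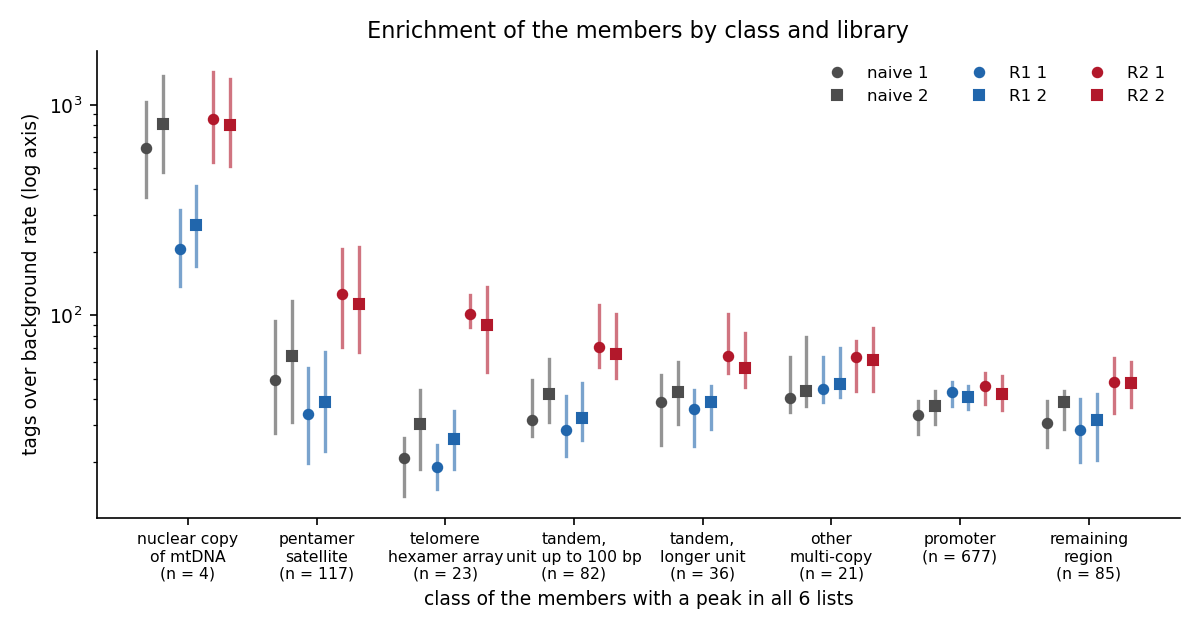
Tags at the summit over the background rate of the library (log axis) for members with a peak in all 6 lists, by class; points are medians over members (circles replicate 1, squares replicate 2) and lines run between the quartiles. Promoters stay between 33.7 and 45.9 in all libraries, whereas pentamer satellites and telomere hexamer arrays are highest in both R2 libraries, at 113 and above and at 90.1 and above.

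Telomere repeats reached the top mainly in R2. Of the 23 hexamer arrays, 21 lay within 1 Mb and 15 within 20 kb of a chromosome end, on 13 chromosomes, and their windows held a median of 23 hexamers. The R2 libraries had 4.2% and 3.6% of their top 500 peaks in such arrays, the naïve libraries 0.4% and 1.2%, and the R1 libraries 0% and 0.6%. Median enrichment was 20.98 and 30.3 for naïve cells, 19.0 and 25.8 for R1, and 101 and 90.1 for R2. The array at the end of the long arm of chromosome 22, chr22:50807795-50808539, had 86 and 73 tags for naïve cells, 178 and 195 for R1, and 110 and 141 for R2, which are enrichments of 37.6, 54.0, 22.4, 35.9, 129 and 157. Both R2 values were more than 2 times as high as the highest of the others. The array that was in the top of the most lists, chr12:132149372-132150005 inside NOC4L, a ribosome biogenesis gene, repeats a unit of 44 bp that contains the hexamer, and its summit lies 1125669 bp from the chromosome end. It had enrichments of 54.2 and 57.7 for naïve cells, 40.4 and 43.4 for R1, and 121 and 142 for R2. As these arrays entered mostly through the R2 lists, a high value in R2 was part of how they were chosen.

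The other tandem repeats were mostly GC-rich minisatellites toward chromosome ends. Of the 83 regions with a unit of up to 100 bp, 50 were over 60% GC and 58 lay within 5 Mb of a chromosome end. The strongest was different: chr3:93470260-93470838, within the span of the centromeric array of chromosome 3, had a 42-bp unit of 24% GC and 1316 and 799 tags for naïve cells, 1289 and 1215 for R1, and 706 and 822 for R2. Next came chr5:178584534-178586242 in COL23A1, a collagen gene, with 522 and 391 tags for naïve cells, 1244 and 1043 for R1, and 402 and 357 for R2, and chr16:1024793-1026244, which repeats a unit of 24 bp. The region chr21:8219742-8220258 lies 7483 bp from RNA5-8SN2, a ribosomal RNA gene, in a CT-rich stretch. Among repeats with a longer unit, chr10:133689253-133689636, 5778 bp from the DUX4 pseudogene DUX4L20, had 524 and 393 tags for naïve cells, 1151 and 1045 for R1, and 364 and 390 for R2. For naïve cells and R2 the medians of these repeats were nearer to those of promoters than the satellite median was. The short-unit median was 1.04 ± 0.136 times the promoter median for naïve cells, 0.725 ± 0.0948 in R1 and 1.54 ± 0.000716 in R2 (SD, n = 2), and the long-unit median was 1.16 ± 0.0192, 0.883 ± 0.0772 and 1.36 ± 0.0484.

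Sequences present in more than 1 near-identical copy, without repeating at a fixed distance of up to 2500 bp, included parts of gene families. The strongest, chr3:75667687-75670803, lies over DUX4L26, a pseudogene of the DUX4 homeobox gene. It had 41 further copies in the genome, 0 of them at 98% identity or more. Its tags were 356 and 259 for naïve cells, 1459 and 1138 for R1, and 181 and 205 for R2. The region chr17:43251557-43251802, 342 bp from a U2 small nuclear RNA gene, had 194 and 131, 507 and 380, and 126 and 125. The regions chr18:109051-112356 at ROCK1P1, chr22:12691639-12694144 and chr19:37292979-37293943 had 28, 27 and 53 further copies, of which 0, 0 and 24 were at 98% identity or more. Of the 21 regions, 16 were near a transcript start, and the class median over the promoter median was 1.19 ± 0.0105 times for naïve cells, 1.09 ± 0.0820 in R1 and 1.42 ± 0.0444 in R2 (SD, n = 2).

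Promoters were the largest class. Their summits lay a median of 77 bp from the nearest transcript start, 417 of 678 (61.5%) within 100 bp, and 637 had a protein-coding start within 1000 bp. At 101 of them (14.9%) transcripts of protein-coding genes started on both strands within 1000 bp of the summit. Their windows had a median GC content of 71.5%, against 41% in the pentamer satellites. The 5 that were in all 6 lists with the best mean rank were at CENPX and LRRC45, which encode a centromere protein and a centrosome linker protein; MSMO1, an enzyme of cholesterol synthesis; SP4, a transcription factor of the SP family; RAB40B, a small GTPase; and FASN, fatty acid synthase. The CENPX and LRRC45 region, chr17:82002287-82038330, had enrichments of 76.1 and 101 for naïve cells, 73.5 and 81.1 for R1, and 100.0 and 99.0 for R2. At MSMO1, chr4:165327129-165328263, they were 86.1 and 71.8 for naïve cells, 94.2 and 88.3 for R1, and 92.9 and 63.4 for R2. FASN, chr17:82075911-82109375, had 56.8 and 77.0 for naïve cells, 58.3 and 65.5 for R1, and 77.6 and 85.7 for R2. At CENPX and LRRC45 the naïve values spanned those of R2, at MSMO1 the R2 values spanned those of naïve cells, and at FASN the naïve values spanned those of R1. In these 3 the highest library was less than 2 times the lowest. At SP4 the enrichments were 58.6 and 64.4 for naïve cells, 87.8 and 77.8 for R1, and 77.6 and 86.8 for R2. There every resistant library was above both naïve ones, a difference that was not tested. At RAB40B they were 53.8 and 78.5 for naïve cells, 64.2 and 63.5 for R1, and 84.7 and 74.5 for R2, and the naïve values spanned those of R1.

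Some promoter regions were very wide, and their widest peaks were in the R1 libraries, which had the highest background rates. Over all libraries, 43 promoter regions were over 10 kb wide. The region at MICALL2, chr7:1428516-1506508, was 77993 bp wide, and its best peak spanned 6000 and 6453 bp for naïve cells, 36045 and 77911 for R1, and 1736 and 2314 for R2. The region at LFNG, a modifier of Notch receptors, spanned 45734 bp, and that at DGAT1, which makes triglycerides, 34523 bp. At MICALL2, LFNG and DGAT1 both R1 peaks were wider than the peaks of the other 4 libraries. Over the lists, the median width of a top peak was 1248.5 and 1139 bp for naïve cells, 1861.5 and 1907.5 for R1, and 876.5 and 860.5 for R2.

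The promoter regions were unevenly spread over the chromosome arms. Arms 7p (51 regions), 4q (67), 17q (95) and 1q (102) together held 315 of the 678 promoter regions (46.5%) and 13.8% of protein-coding genes. Per 100 protein-coding genes this was 17.2 on 7p, 12.8 on 4q, 11.3 on 17q and 10.4 on 1q, beside 3.55 over all arms. Arms 9p, 12p and 17p held 0. These arms were singled out after their values were seen. In the top 500 of each list, the 4 arms held 54.4% and 55.6% of promoter peaks for naïve cells, 52.7% and 54.4% for R1, and 60.3% and 61.0% for R2. In the next 500 ranks they held 29.1% to 38.2%, and in the deeper ranks 13.2% to 19.2%, so the concentration was a feature of the most enriched promoters of every library. The background rate recovered from each list is a single value for the whole genome.

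The counts of promoter regions differed between naïve and R1 cells on many arms, in either direction, and 4 arms are given first. On 4q, 21 and 8 regions were in the naïve top peaks, 60 and 47 in those of R1, and 14 and 18 in those of R2. On 13q the counts were 2 and 1 for naïve cells, 19 and 17 for R1, and 5 and 7 for R2. On 22q they were 0 and 0, 8 and 14, and 0 and 0. Arm 19p had 13 and 18 for naïve cells, 0 and 0 for R1, and 0 and 1 for R2. On these 4 arms, also picked after their values were seen, the R1 counts did not overlap the naïve counts. This held on many other arms too, so it does not set these 4 apart. Arm 1p had 14 and 15 for naïve cells and 5 and 4 for R1, and 20q had 1 and 0, and 11 and 11. On 7q the counts were 11 and 8 for naïve cells and 1 and 1 for R1. On other arms they overlapped, as on 17q, with 58 and 65 for naïve cells and 54 and 65 for R1. Over all arms, R1 had more promoter regions in its top peaks, 385 and 344 against 292 and 258 for naïve cells. The lists share a fixed length, so that more regions on some arms leave less room for others.

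**Figure D4:**
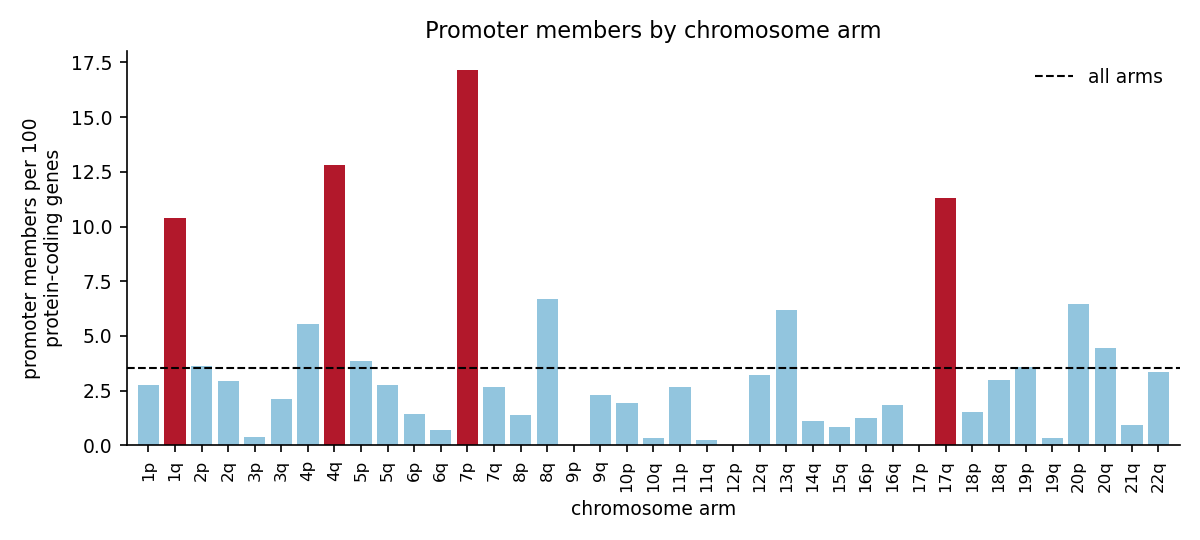
Number of promoter regions among the members per 100 protein-coding genes, for each chromosome arm with genes on chromosomes 1 to 22 (21p, with 1 gene, is left out). Bars over 10 are red (1q, 4q, 7p and 17q) and the dashed line is the value over all arms, 3.55.

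By gene function, most of the families examined had few or no genes at the most enriched promoters. Of all 19103 protein-coding genes, 772 (4.04%) had a member's summit within 1000 bp of a start. None of 83 cytoplasmic ribosomal protein genes had one, nor any of 69 replication-dependent histone genes, 39 proteasome genes and 7 AP-1 genes. Splicing factors had 2 of 78 (HNRNPR and SRSF2), translation factors 1 of 68 (EIF2AK3, a kinase of the integrated stress response), zinc finger genes 11 of 503, genes with MCM, ORC, CDC, CCN or CDK symbols 4 of 83 (CCNL2, CDC25C, CDC42EP4 and CDK13) and mitochondrial ribosomal proteins 4 of 78 (MRPL28, MRPL38, MRPL40 and MRPS24). Lists were made by symbol, and of the genes that share these cell cycle symbols CDC25C is a phosphatase that drives entry into mitosis, whereas CDC42EP4 is an effector of the GTPase CDC42 and CCNL2 and CDK13 act in splicing and transcription. Small nuclear RNA genes with RNU or RNVU symbols, a list that leaves out the U2 gene described above, had 1 of 1729 and small nucleolar RNA host genes 1 of 28. No list was tested against the share over all genes, and at 4.04% lists of this size hold few genes in any case. Of 372 nuclear pseudogenes of mitochondrial genes, 6 were near a member. RBM39, the splicing factor that indisulam degrades, and DCAF15, the ubiquitin ligase subunit that the drug binds, were not members. The peak at RBM39 ranked 7902 and 5293 for naïve cells, 3622 and 2320 for R1, and 1052 and 4598 for R2, and that at DCAF15 792 and 945, 5318 and 3079, and 3393 and 596.

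The CCAAT box, which binds NF-Y, was in most of the promoters. It occurred on either strand within 100 bp of the summit in 58.1% of the 678 promoter regions, beside 53.4% of promoter peaks of the next 500 ranks, 27.7% of those of the deeper ranks and 25.6% of windows around all 19111 protein-coding gene starts. The GC box GGGCGG, bound by SP factors, was in 81.7%, 82.3%, 64.7% and 47.1% of the same sets. CCGGAAG, bound by ETS factors, was in 9.29%, 11.1%, 14.1% and 10.2%. The AP-1 site TGANTCA was in 16% of the remaining regions and 2.51% of promoter regions. In the deeper ranks it was in 16.8% of the peaks of the same class as the remaining regions. Among TGACGTCA, GCGCATGC, AAGATGGCG, CTCGCGAG, ACAATTCCC, CACGTG and AGGGGGCGC, which were also searched on both strands, none occurred in more than 4.87% of promoter regions. Each motif was counted on its own, whether or not a match overlapped that of another, and a match is not a measured binding site.

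The shares of tandem repeats, promoters and pentamer satellites differed between the cell types by more than their libraries differed. Tandem repeats were 31% and 36% of the top 500 for naïve cells (33.5% ± 3.54), 16% and 22.4% for R1 (19.2% ± 4.53), and 51% and 47.4% for R2 (49.2% ± 2.55; SD, n = 2 each). Promoters were 55.3% ± 4.95, 73.1% ± 6.08 and 38.4% ± 0.849, and pentamer satellites 19.9% ± 1.84, 11.3% ± 2.12 and 26.7% ± 0.424. For all 3 classes, and for each pair of cell types, the ranges of the libraries did not overlap and the gap between them was larger than the largest difference between libraries of a cell type, which was 6.4 percentage points for tandem repeats, 8.6 for promoters and 3 for the satellite. For every other class this failed for some pair of cell types. The 3 shares are not independent: the satellites are part of the tandem repeats, and in a list of fixed length more repeats leave less room for promoters. No test was made, since with 2 libraries against 4 an exact two-sided test cannot give a p below 0.133. The order of the tandem share over the 6 libraries was the reverse of the order of their background rates, and within each of the 3 cell types the library with the lower rate had the higher tandem share. Cell type and depth cannot be told apart in these shares.

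**Figure D5:**
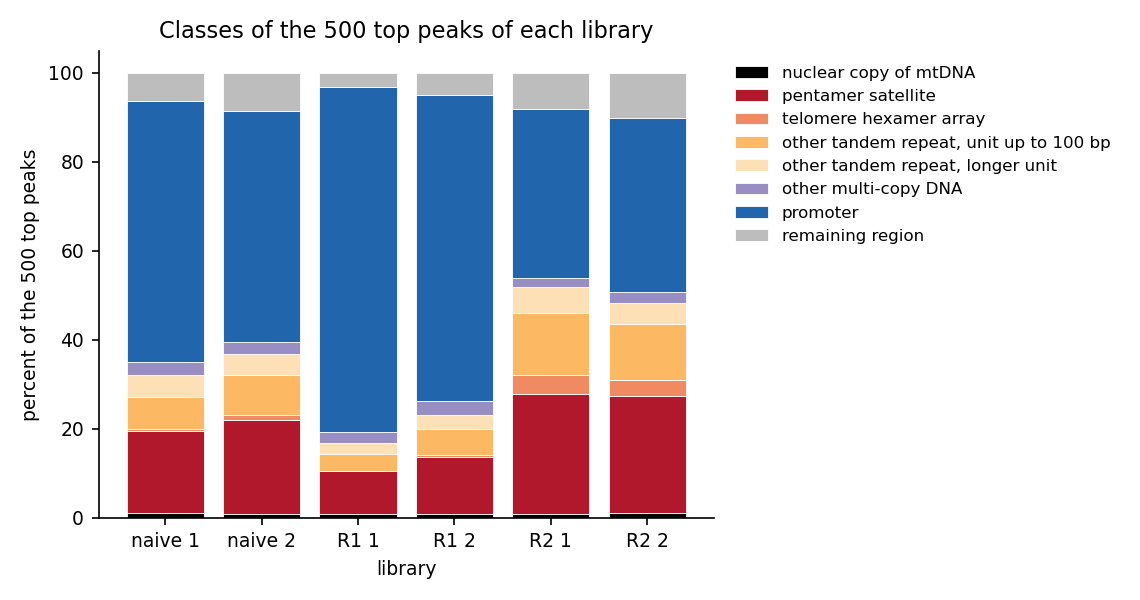
Percent of the 500 top peaks of each library in each class, stacked to 100; each bar is a library. The promoter share (blue) runs from 37.8% in the first R2 library to 77.4% in the first R1 library, and the repeats take up most of the rest.

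Regions in the top 500 of both libraries of a cell type and of no other list showed the same contrast. R1 had 103, of which 96 were promoters (93.2%). R2 had 84, of which 20 were pentamer satellites, 13 hexamer arrays, 17 short-unit repeats, 10 promoters and 20 remaining regions. Naïve cells had 34, with 26 promoters, and 38 regions, of which 19 were pentamer satellites, were in the naïve and R2 lists only. Another 6 regions, all promoters, were in the 4 resistant lists and no naïve list. In R1 the best by mean rank were at OTUD4, which encodes a deubiquitinase (enrichments 35.0 and 35.5 for naïve cells, 63.5 and 55.9 for R1, 48.2 and 44.5 for R2), at chr1:181104396-181106060, which lies 16627 bp from IER5, and at chr4:139175828-139178782 near ELF2, an ETS factor. In R2 they were a 22-bp repeat at chr6:169425404-169426102 (31.9 and 34.0, 35.9 and 31.6, and 107 and 61.2) and the promoters of CDK5RAP3, a protein of the UFM1 pathway, and MAP3K14, a kinase that activates NF-κB.

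In naïve cells they were SRM, which makes spermidine (40.7 and 50.3 for naïve cells, 37.9 and 38.3 for R1, and 47.0 and 44.5 for R2), RPA3, a subunit of the single-strand DNA binding complex RPA, and BIN1, a membrane-shaping protein. At these 3 naïve-only promoters the R2 enrichments reached or passed at least 1 naïve value, so their place in the list does not mark a higher level than in R2. In the resistant lists they were DNAJC3, a chaperone of the endoplasmic reticulum (32.4 and 38.5 for naïve cells, 61.6 and 57.0 for R1, 61.2 and 72.3 for R2), TMTC4, an endoplasmic reticulum protein that transfers mannose to cadherins (29.7 and 37.0, 69.1 and 61.3, and 67.0 and 63.4), and FEM1C, a substrate receptor of a ubiquitin ligase (34.5 and 31.8, 53.4 and 43.4, and 55.3 and 60.1). In these 3 every resistant library was above both naïve libraries, which is close to what chose them. DNAJC3 and TMTC4 both lie on 13q.

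The remaining 94 regions were of several kinds. In 24 of them between 50% and 70% of the window's bases matched at a fixed distance, just short of the 70% required of a tandem repeat, 39 lay within 5 kb of a transcript start and 57 inside a protein-coding gene. The strongest, chr7:158595005-158595526, near the end of chromosome 7, was such a partial repeat and had 662 and 467 tags for naïve cells, 1031 and 913 for R1, and 364 and 322 for R2. Others were chr1:3493285-3507220 within MEGF6, chr10:132361560-132364888 within LRRC27, chr20:1874241-1882348, and chr20:63942187-63964876 within UCKL1.

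A last group was among the top peaks in R2 alone. Each R2 library had 16 top peaks of exactly 200 bp, the width to which each tag is extended, and the other 4 libraries had 0. Over whole lists, such peaks made up 10.4% and 13.6% of peaks for naïve cells, 5.40% and 6.59% for R1, and 18.1% and 18.2% for R2. Among the members, 22 regions were 200 or 201 bp wide, of which 21 were remaining regions, 16 were in the top peaks of both R2 libraries, and none was in the top peaks of another library. As the 22 regions entered only through the R2 lists, a high place in R2 was part of how they were chosen. The 500th peak had 44 and 45 tags in R2, against 81 and 55 for naïve cells and 334 and 222 for R1. Cell type and depth cannot be told apart here. The median GC content of the 22 regions was 42.25%. The best by mean rank over the lists, chr5:56860994-56861194, ranked 308 and 252 in R2. It had 53 and 59 tags in R2, 27 and 53 in naïve cells and 66 and 76 in R1. The region with the most tags in R2, chr11:18749199-18749399, 4886 bp from PTPN5, ranked 90 and 87 there. It had 125 and 127 tags in R2, 20 and 34 in naïve cells and 97 and 84 in R1. Of the 12 members that lacked a peak in some list, 9 were of this width, and all 12 lacked it in the first naïve library. The region chr6:142695473-142695672, picked after its values were seen, had 63 and 48 tags in R2, 19 and 26 in R1, 11 in the second naïve library and no peak in the first.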

How the data were processed

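ATAC-seq of 6 libraries, 2 per cell type, was analysed from the peak lists that the authors deposited. Per the labels and the methods of the study, reads were aligned with BWA 0.7.12-r1039, duplicates were marked with Picard 1.65 and reads were filtered with SAMtools 1.3.1. The filter kept reads with a mapping quality of at least 1 that were not marked as duplicates. Reads mapped to the mitochondrial genome were left out, read ends were offset for Tn5, and peaks were called in each library separately with MACS2 2.2.7.1 at q 0.01 with tags extended to 200 bp. The labels also name bedtools 2.25.0. The methods name hg19 and the submitters' notes hg19 and hg38, and the coordinates were read as hg38 because the peaks lie at the gene starts of that build.

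The deposited lists give the fold enrichment (a ratio with 1 added to both sides), the −log10 p and −log10 q, a score that is 10 times the −log10 q without its decimals, and the summit position. Read totals are not given in the sources used here. The tags at each summit and the background rate were recovered from the deposited fold alone. Every recovered tag number was within 0.000139 of a whole number, and the recovery was checked on simulated data. The lists hold 66788 to 337851 peaks on chromosomes 1 to 22.

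The 500 peaks with the highest −log10 p in each list, ties by fold, were merged where they shared at least 1 base. Classes were assigned in order, from the 200 bp at the summit of the best-ranked peak. A nuclear copy of mitochondrial DNA was a BLAST 2.17.0 match of at least 100 bp over the summit. A tandem repeat had at least 70% of bases equal to the base at a fixed distance of up to 2500 bp. Another multi-copy sequence had a further copy at 90% identity or more over 90% of the window, searched only outside tandem repeats. A promoter lay within 1000 bp of a transcript start of GENCODE 44. The centromeric array of a chromosome was the span from its first to its last 10-kb bin with at least 10 CENP-B boxes. Bins between them could hold fewer boxes, and on chromosome 9 the span ran from 43380001 to 65060000. Repeat families were not named, since the genome used here carries no repeat annotation. Promoter sequences came from RefSeq. Some sequence windows and 1 marker gene are not reported here.

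Regions were named by rule: the 10 in the most lists with the best mean rank, the 5 best of each class, the 3 best found only in a cell type or only in resistant cells, and RBM39 and DCAF15. Members and lists were chosen with earlier results of these data known. All values are descriptions per library, or mean ± SD over 2 libraries, and no test was made, since an exact test of 2 libraries against 4 cannot give a two-sided p below 0.133 and the members were chosen by the values compared. The number of top peaks, the ranking, the merging, the class limits and each library were varied. Python 3.11.15, pandas 2.3.3, NumPy 2.4.6, pysam 0.24.0, Biopython 1.88, SAMtools 1.23.1 and matplotlib 3.10.9 were used.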

Additional observations from a re-analysis of the deposited data

How the results depend on the processing

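With 250 top peaks per list there were 499 regions, 80 of them in all lists; per list on average 42.8% of peaks were near a start, 1.73% copies of mitochondrial DNA, 52% tandem repeats, 3.47% other multi-copy sequences and 0.667% exactly 200 bp wide. With 500 these were 1057, 155, 60.0%, 0.867%, 34.0%, 2.67% and 1.07%, and with 1000 they were 2079, 301, 71.9%, 0.45%, 21.05%, 2.4% and 0.933%. Counting only protein-coding starts gave 54.0% near a start, requiring 95% identity to mitochondrial DNA gave 0.467%, and requiring 80% of bases for a tandem repeat gave 27.6%. Requiring 98% identity, or 10 further copies, gave 1% and 1.33% other multi-copy sequences. Ranking by fold gave the same 500 peaks in every list, as it must with 1 background rate per list. Without each library in turn, the regions numbered 979 to 1022, those in all lists 157 to 185, the share near a start was 55.8% to 63.48%, copies of mitochondrial DNA 0.84% to 0.88%, tandem repeats 30.56% to 37.56% and other multi-copy sequences 2.6% to 2.76%. The mean enrichment of copies of mitochondrial DNA, 596, ran from 543 to 673. Peaks of exactly 200 bp ran from 0.64%, without either R2 library, to 1.28%. In an alternative chosen after seeing the data, the tandem share of R2 minus naïve cells, 15.7 percentage points, was 19.6 with 250 peaks, 10.55 with 1000 and 12.8 with the 80% limit, and naïve cells minus R1, 14.3, was 24.4, 8.15 and 12.3. The cause of these changes was not tested beyond the rank ranges, in which repeats lie at the top. The share of repeat-masked bases was not run, as the genome carries no masking. No paired analysis was possible because the results come from no test. Without read totals, the recovered background rate stands for depth, and it differs between the cell types.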
